A study of Mus musculus with 36 samples.

Results

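Cytosolic ribosomal protein genes encode the proteins that, together with ribosomal RNA, build the small and the large subunit of the ribosome that translates nuclear mRNAs. They were taken here as every gene of the count tables whose symbol starts with *Rps* or *Rpl* and a number, with *Rplp0*, *Rplp1*, *Rplp2* and *Rpsa*, without the *Rps6k* kinases and without symbols marked as pseudogenes, if it lay above 1 CPM (the counts-per-million scale, which sets a count relative to the library total) in at least 6 libraries of both the cerebellum and the hippocampus. Of 24421 genes listed, 88 matched by symbol and 83 passed, 34 named for the small and 49 for the large subunit. The symbol rule also takes in *Rps19bp1*, which encodes a protein that binds RPS19 and is not a subunit of the ribosome, and *Rps4l*, an intronless *Rps4x* relative that RefSeq lists as a transcribed pseudogene. *Fau*, which encodes a ribosomal protein fused to a ubiquitin-like part, carries another symbol and was kept apart.

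RNA was sequenced from the cerebellum and the hippocampus of 18 adult C57Bl/6 mice, 3 males and 3 females of each genotype. Control mice were Pogzfl/fl without Cre, *Pogz* cKO+/- mice were NesCre/+; Pogzfl/+, and *Pogz* cKO-/- mice were NesCre/+; Pogzfl/fl. Floxed alleles were thus present in all animals, while the Nestin-driven Cre, which deletes them in the nervous system, was present in both mutant groups and absent from the controls, so that Cre and the loss of *Pogz* cannot be told apart in a contrast with the controls, while cKO+/- and cKO-/- share Cre. *Pogz* encodes a zinc finger protein that binds the heterochromatin protein HP1. The hippocampal library of a cKO-/- female, Sample_1160, stood apart from all others and is described separately; hippocampal values come from 17 libraries unless stated.

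Outside the stalk, each ribosomal protein occurs in a single copy per ribosome, and most of their mRNAs are held under common control at the level of translation. Many of these mRNAs begin with a terminal oligopyrimidine tract, a C followed by an unbroken run of C and T, through which the kinase complex mTORC1 and the RNA-binding protein LARP1 set how strongly they are translated. In the brain these mRNAs are found in the cell body, dendrites and axons of neurons and in glia. The genes have given rise to a large number of processed copies across the genome, so that short reads from them often match more than 1 place.

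The tract is shown here for a few of the genes. The windows below run from 15 bases before the annotated start to 15 bases from it on, on the strand of the gene (RefSeq, GRCm38.p6), with the tract in capitals. The first 4 hold a tract within 5 bases of the start, and the windows of the last 2, *Rps27l* and *Rps4x*, hold none there. For these 2 the annotated start lies upstream of the gene as counted, which begins at chr9:66946118 and at chrX:102188371. Their windows therefore do not show whether a tract stands at the counted start.
Rps6 (chr4:86857353-86857382, minus strand): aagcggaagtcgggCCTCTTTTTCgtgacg
Rps27 (chr3:90213634-90213663, minus strand): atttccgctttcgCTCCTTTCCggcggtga
Rps15a (chr7:118116133-118116162, minus strand): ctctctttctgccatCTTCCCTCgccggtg
Rps2 (chr17:24720048-24720077, plus strand): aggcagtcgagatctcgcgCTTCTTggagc
Rps27l (chr9:66946071-66946100, plus strand): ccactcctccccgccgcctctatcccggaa
Rps4x (chrX:102189377-102189406, minus strand): ctgaggctgggcggagcaacccaggctcca

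A promoter entry was matched for 62 of the 83 genes. A C followed by at least 5 C or T, read on the gene's own strand only, began within 5 bases of an annotated start in 26 of the 62 (41.9%), against 2976 of all 27025 symbols with an entry (11.0%). At the first base itself the tract stood in 11 of the 62 genes (17.7%) and in 553 of all symbols (2.05%). Among cytosolic translation factors and other terminal oligopyrimidine mRNAs (below), 13 genes had an entry. Of these, 4 (30.8%) held a tract within 5 bases and 3 (23.1%) at the first base, so the tract is not particular to the ribosomal protein genes. The mitochondrial ribosomal protein genes, whose products form the separate ribosome of mitochondria, held a tract within 5 bases in 4 of 68 (5.88%). Of the genes with an entry that were higher in the hippocampus (below), 20 of 49 (40.8%) held it, and of the remaining members 6 of 13 (46.2%). Annotated starts can miss the true start by several bases, and the tract definition was chosen after the sequences had been looked at.

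Library totals ran from 21421850 to 32544929 counts in the cerebellum and from 17609321 to 45544188 in the hippocampus, and 58291 to 161455 counts of a library fell on the 83 genes. *Pogz* itself was lower with each allele lost, by 0.30 on the log2 scale in the cerebellum (SE 0.046, adjusted p = 0.000356) and by 0.28 in the hippocampus (SE 0.020, adjusted p = 1.79e-07), and no cKO-/- library overlapped a control library in either tissue. Its counts include exons outside the deleted part. Cerebellar neuron markers summed to 9977 to 17940 CPM in cerebellar and 479.7 to 1164 CPM in hippocampal libraries, and the hippocampal neuron markers to 205.1 to 302.4 and 703.9 to 1163 CPM, with *Emx1* at a median count of 0 in the cerebellum.

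The genes took up a small share of the counts of each library. They held 0.25% to 0.38% of the counts in the 18 cerebellar libraries (median 0.28%) and 0.30% to 0.38% in the 17 hippocampal libraries (median 0.35%). The median gene stood at 15.3 CPM in control cerebellum and at 20.1 CPM in control hippocampus. Within the cerebellum the libraries of control Sample_1190 (0.38%) and of cKO-/- Sample_1379 and Sample_1385 (0.36% and 0.34%) were the highest. The median level of other genes of up to 1000 bases was also highest in these 3 libraries, at 4.16, 4.14 and 4.03 on the log2 CPM scale against 3.73 to 3.95 in the other 15, and its part in the spread of the ribosomal protein genes was not tested.

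**Figure D1:**
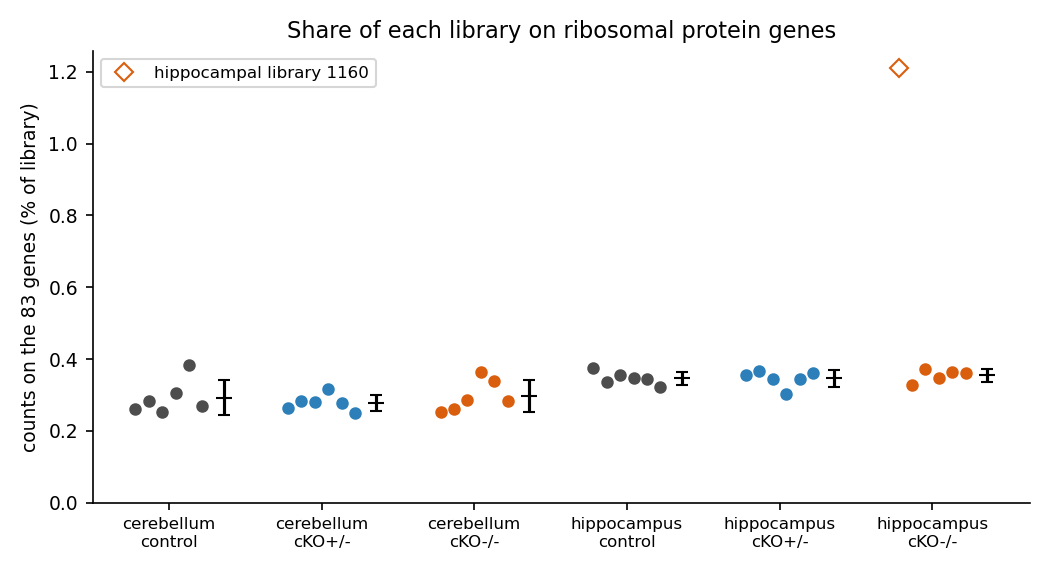
Counts on the 83 ribosomal protein genes as percent of all counts of each library (vertical axis) in the 6 groups of tissue and genotype. Points are libraries, black bars show the mean ± SD without hippocampal library Sample_1160, and that library, drawn as an open diamond, sits at 1.21% while all others lie between 0.25% and 0.38%.

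Levels between genes were compared per length, as CPM per kilobase of exon. In control cerebellum *Rpl8* (256.0 ± 39.1, SD, n = 6) and *Rplp1*, a protein of the stalk that recruits translation factors (248.0 ± 46.9), came first and differed by less than their spread. *Rpl4* (205.2 ± 20.2) and *Rps15* (188.0 ± 35.1) followed, within the SD of each other. In control hippocampus *Rplp1* led with 478.7 ± 29.2, clear of *Rps15* (304.4 ± 20.1), *Rpl8* (298.0 ± 13.8) and *Rpl4* (278.2 ± 10.4). At the other end *Rps27* (1.76 ± 0.33), *Rpl30* (1.97 ± 0.50), *Rps13* (2.15 ± 0.44) and *Rpl34* (2.26 ± 0.51) were lowest in control cerebellum, and *Rpl30* (2.44 ± 0.40), *Rps27* (2.59 ± 0.62), *Rpl27* (2.93 ± 0.13) and *Rpl5* (2.96 ± 0.21) in control hippocampus. The whole range over the 83 genes was 1.76 to 256.0 in control cerebellum and 2.44 to 478.7 in control hippocampus.

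Shared sequence was measured beside these levels. For 81 of the genes a transcript was found in the mouse genome build NCBIM37, and each of its stretches of 43 bases, the length of 1 sequenced read, was searched for elsewhere in the genome. In the median gene 64.6% of these windows occurred at another place, and in 54 of 81 genes more than 50% did. The median was 0.39% for 77 mitochondrial ribosomal protein genes and 1.13% for 88 genes of oxidative phosphorylation. In *Rps27* it was 99.7% of windows, and in *Rps19bp1* it was 0.0%. The CPM per kilobase tended to be lower with a larger shared share, but not from each class to the next. The median in control cerebellum was 33.6 over the 11 genes with at most 25% of windows elsewhere and 19.8 over the next 16 (up to 50%). It was 31.2 over 23 (up to 75%), 9.17 over 17 (up to 90%) and 8.01 over the last 14. For some genes the transcript searched was longer than the counted exons: 3706 against 502 bases in *Rps20*, 1242 against 638 in *Rpl12* and 946 against 452 in *Rpl35*. The shared share of such genes also covers sequence that was not counted, so the classes are approximate. Spearman's rho across the 81 genes was -0.36 in control cerebellum and -0.32 in control hippocampus, as a description over genes that share libraries and length classes. *Gapdh*, the glycolytic enzyme gene with a large number of processed copies, had 85.7% of windows elsewhere and stood at only 30.95 to 40.09 CPM in control cerebellum. How reads with several matches were counted is not given in the sources used here, so the levels of single members are uncertain. How far the summed share of counts reflects the share of the mRNA is uncertain for the same reason. The depth per gene varied as well: *Rps27* rested on 18 to 85 counts per library, while *Rpl4* had 6238 to 17649.

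**Figure D2:**
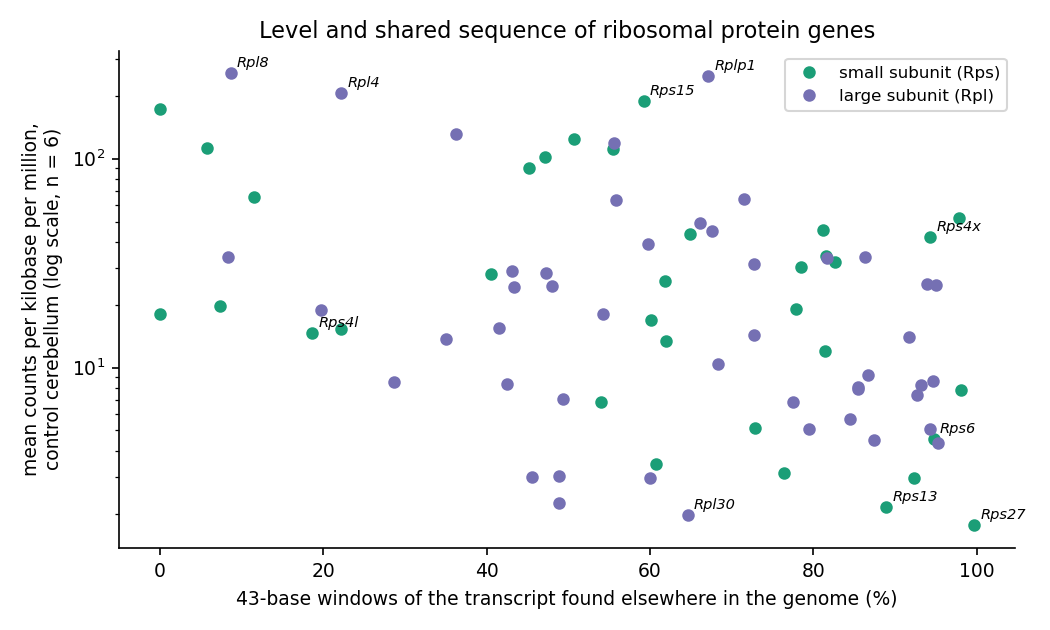
Mean CPM per kilobase of exon in control cerebellum (n = 6 libraries, log scale) against the percentage of each transcript's 43-base windows found elsewhere in the genome, for 81 genes. The highest gene, Rpl8, had 8.66% of windows elsewhere, and Rps27, the lowest, had 99.7%.

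Of the symbols that matched the rule, 5 did not pass the filter. *Rpl3l*, the muscle relative of *Rpl3*, reached at most 0.87 CPM in the 6 control hippocampal libraries. *Rpl39l* and *Rpl10l*, copies known from the male germ line, stayed at or below 0.51 CPM and 0.060 CPM in every group. *Rpl26* stayed at or below 0.089 CPM although it is a regular subunit gene, and 83.5% of its windows occurred elsewhere. *Rps27rt* had 0 counts in every library of these groups and is listed at the same place as *Rps27* (chr3:90212667-90213647 against chr3:90212667-90213648, GRCm38), so that reads of these genes could be split or dropped in counting. *Rpl37rt* (chr5:115102922-115110268), a copy of *Rpl37*, is a member and could not be matched to a transcript for the window search.

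The first comparison asked how the genes differ between the tissues, with each difference averaged over the genotypes unless controls alone are named. Most ribosomal protein genes were higher in the hippocampus: 66 of 83 rose and 4 fell against the cerebellum, while 13 did not pass the test. Over all 13587 genes tested, 39.7% were higher and 42% lower in the hippocampus. The median difference was 0.33 on the log2 scale (1.26-fold) for the 83 genes and -0.014 for all genes. In small-subunit genes 28 of 34 rose and 2 fell (median 0.43), and in large-subunit genes 38 of 49 rose and 2 fell (median 0.30). In 17 animals with both libraries, 21 genes were higher in the hippocampus of every animal, and 2, *Rpl7l1* and *Rpl23a*, were lower in every animal. In control animals alone 46 genes rose and 2 fell (median 0.28), where 71.7% of all genes were called, 34.7% higher and 37.1% lower. The libraries of the tissues did not overlap at all for 9 genes that were higher in the hippocampus and 1 that was lower, of 83, against 16.2% and 14% of all genes.

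**Figure D3:**
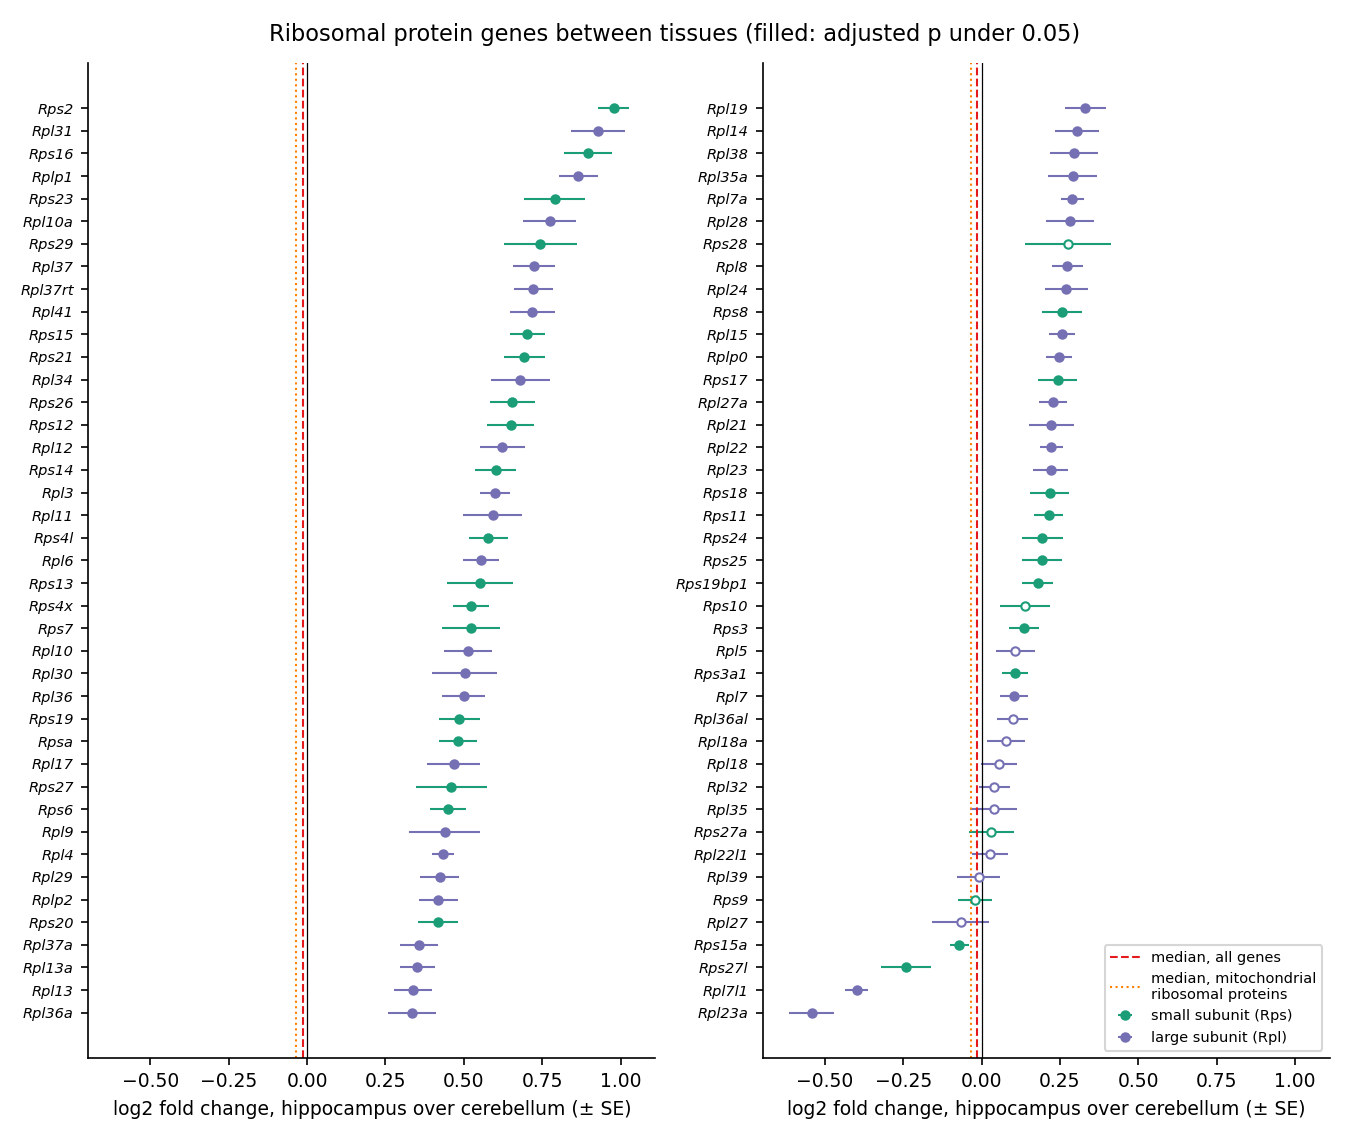
Log2 fold change of 82 of the 83 genes, hippocampus over cerebellum (horizontal axis, ± SE, 35 libraries), from the highest (top left) to the lowest (bottom right). Filled points passed the test at an adjusted p under 0.05, and the lines mark the median of all genes (-0.014) and of mitochondrial ribosomal protein genes (-0.035).

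In the tissue comparison the CPM levels of single members are of control libraries, beside fitted differences averaged over the genotypes. Among small-subunit genes *Rps2* changed most. Its level in control cerebellum was 31.25, 32.99 and 39.74 CPM (lowest, median and highest of 6 libraries), and in control hippocampus 64.78, 69.33 and 76.13 CPM. Every hippocampal control library lay above every cerebellar one. RPS2 lies near the entry of the mRNA into the small subunit, and the fitted difference was 0.98 (SE 0.051, 1.97-fold, adjusted p = 2.63e-18). *Rps15*, whose protein lies on the head of the small subunit, rose from 83.81, 92.22 and 133.4 CPM to 147.1, 156.7 and 175.6 CPM in controls, also without overlap. Over all genotypes the tissues did overlap for *Rps15*, with 128 CPM in the hippocampus of cKO+/- Sample_1433. Its fitted difference was 0.70 (SE 0.056, adjusted p = 2.43e-13). *Rps6*, the classical substrate of the S6 kinases downstream of mTORC1, rose by 0.45 (SE 0.057, adjusted p = 1.28e-08), *Rpsa*, which also encodes the laminin receptor, by 0.48 (SE 0.061), and *Rps19*, mutated in Diamond-Blackfan anaemia, by 0.49 (SE 0.066). *Rps27a*, which encodes a ubiquitin fused to a subunit of the ribosome, stood at 4.27 CPM in control cerebellum and 4.03 CPM in control hippocampus (medians) and did not pass (0.03, SE 0.072, adjusted p = 0.698).

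In the large subunit all 3 stalk genes rose. *Rplp1* had 94.19, 110.0 and 154.8 CPM in control cerebellum and 203.6, 229.2 and 236.4 CPM in control hippocampus, with no overlap, and a difference of 0.87 (SE 0.063, 1.82-fold, adjusted p = 2.43e-14). *Rplp2* rose by 0.42 (SE 0.062) and *Rplp0*, which anchors both stalk proteins, by 0.25 (SE 0.042). *Rpl3*, whose protein reaches towards the peptidyl transferase centre, rose from 17.1, 18.36 and 22.25 CPM to 26.88, 28.99 and 30.31 CPM, by 0.60 (SE 0.048, adjusted p = 3.05e-13). *Rpl11* rose by 0.59 (SE 0.093), while *Rpl5*, its partner in the particle with the smallest ribosomal RNA that restrains Mdm2, had a difference of 0.11 (SE 0.062, adjusted p = 0.112). The small basic *Rpl41* rose by 0.72 (SE 0.073), *Rpl10*, which joins the large subunit late in its assembly, by 0.51 (SE 0.076), and *Rpl38*, known for skeletal defects in the mouse, by 0.29 (SE 0.078).

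The genes that fell were few and included relatives of regular members. *Rpl7l1*, a relative of *Rpl7*, had 42.58, 49.61 and 57.66 CPM in control cerebellum and 34.35, 36.17 and 37.14 CPM in control hippocampus, without overlap, and fell by 0.40 (SE 0.036, adjusted p = 4.08e-12), whereas *Rpl7* rose by 0.10 (SE 0.044, adjusted p = 0.0331). *Rps27l*, a p53-responsive relative of *Rps27*, had 5.25, 6.96 and 9.19 CPM and then 5.0, 6.35 and 6.88 CPM, which overlap, and fell by 0.24 (SE 0.080, adjusted p = 0.00632), while *Rps27* rose by 0.46 (SE 0.11). *Rpl23a* had a median of 4.69 CPM in control cerebellum and 3.12 CPM in control hippocampus. Over the genotypes it fell by 0.54 (SE 0.073, adjusted p = 3.45e-08), on few counts, and *Rps15a* by 0.071 (SE 0.031, adjusted p = 0.0359). In control animals alone *Rps27l* (adjusted p = 0.128), *Rps15a* (adjusted p = 0.693) and *Rpl7* (adjusted p = 0.184) did not pass. *Rpl22l1*, the relative that *Rpl22* is known to repress, had a difference of 0.03 (SE 0.057, adjusted p = 0.667) beside a rise of 0.22 (SE 0.037) in *Rpl22*. *Rpl36a* rose by 0.33 (SE 0.078) and its autosomal copy *Rpl36al* had 0.10 (SE 0.050, adjusted p = 0.0651). *Rpl39*, on the X chromosome, had -0.010 (SE 0.068, adjusted p = 0.903), and *Rps19bp1* rose by 0.18 (SE 0.049). *Fau*, outside the list, had -0.14 (SE 0.073, adjusted p = 0.0794).

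Transcript length and cell mixture were set beside the tissue difference. The 83 genes had a median exon length of 710 bases, against 3060 bases over the genes tested in both tissues. Of the other 746 genes of up to 1000 bases, 249 were higher and 278 lower in the hippocampus, with a median of -0.016. The difference was larger in genes with more shared sequence. Its median was 0.22 over the 11 genes with at most 25% of windows elsewhere (8 higher, 3 lower) and 0.45 over the 14 genes with more than 90% (13 higher, 1 lower). The 3 lower genes of the first class were *Rpl7l1*, *Rps27l* and *Rps15a*, and that class also holds *Rps4l* and *Rps19bp1*. The classes thus differ in the kind of gene as well, and the part of either in the difference was not tested. Since a bulk tissue was measured, more cells of a type and more RNA per cell cannot be told apart. All 10 microglia markers were higher in the hippocampus, where they summed to 419.8 to 546.3 CPM against 147.5 to 279.7 CPM in the cerebellum. Of 10 oligodendrocyte markers 2 were higher and 3 lower (3917 to 8356 CPM in the hippocampus, 3985 to 9728 CPM in the cerebellum), and of 9 meningeal fibroblast markers 1 was higher and 7 were lower. The part of the cell mixture in the ribosomal protein genes was not tested.

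Lists of related genes gave smaller medians than the ribosomal protein genes, which was not tested as a difference. Among 19 genes of cytosolic translation factors and other mRNAs known as terminal oligopyrimidine mRNAs, of which 4 of 13 with a promoter entry (30.8%) held a tract within 5 bases of an annotated start, 10 were higher and 4 lower (median 0.16). *Eef1a1*, the factor that delivers aminoacyl-tRNA, rose by 0.78 (SE 0.037), *Pabpc1*, which binds the poly(A) tail, by 0.39 (SE 0.037) and *Eef1b2* by 0.36 (SE 0.041), whereas *Eef2*, the translocation factor, had 0.05 (SE 0.028, adjusted p = 0.112) and *Npm1* fell by 0.19 (SE 0.040). Among 28 genes of ribosome biogenesis 16 were higher and 7 lower (median 0.21), with *Polr1a*, the large subunit of RNA polymerase I, at 0.61 (SE 0.056), *Nop56* at 0.48 (SE 0.051) and *Dkc1*, the pseudouridine synthase of box H/ACA particles, at -0.75 (SE 0.039). The 22 genes of the mTORC1 pathway had 5 higher and 11 lower (median -0.061). Of these, *Tsc2*, an inhibitor of the pathway, rose by 0.58 (SE 0.044) and *Larp1* by 0.11 (SE 0.030), while *Sesn1* and *Deptor*, which also inhibit it, fell by 0.66 (SE 0.047) and by 0.61 (SE 0.072). Of 77 mitochondrial ribosomal protein genes 22 were higher and 33 lower (median -0.035), and of 84 oxidative phosphorylation genes 15 were higher and 46 lower (median -0.11).

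The second comparison asked which of the genes follow the loss of *Pogz*. In the cerebellum 1 of the 83 genes rose and none fell per allele lost by edgeR's quasi-likelihood test, against 7.11% of 14027 genes higher and 6.55% lower, and 4 members (4.82%) had an unadjusted p under 0.05, against 30.2% of all genes. The median over the 83 genes was 0.0055 on the log2 scale, and 0.0009 over all genes. Apart from the 1 gene called, the values ran from -0.32 to 0.13 with a median SE of 0.062, and the smallest adjusted p was 0.13, for *Rps28*. In the hippocampus again 1 gene rose and none fell, against 4.44% of 14339 genes called, 2.09% higher and 2.35% lower, and 10 members (12%) had an unadjusted p under 0.05, against 20.1% of all genes. The median was 0.022, against 0.0017 over all genes, and the other 82 genes ran from -0.17 to 0.19 with a median SE of 0.042. Next to the threshold stood *Rpl37a* (0.13, SE 0.040, adjusted p = 0.062) and *Rpl13a* (0.078, SE 0.026, adjusted p = 0.0971), which passed with DESeq2 and also without cKO-/- Sample_1219. The gene called was *Rps4l* in both tissues.

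*Rps4l* lies at chr6:148354656-148355596 (GRCm38, plus strand) as 1 exon of 941 bases. *Rps4x*, from the X chromosome, encodes a core protein of the small subunit. The coding sequence of the GENCODE M1 transcript of *Rps4l*, listed there as *Rps4y2*, has 789 bases, reads through in frame to its only stop codon at coding base 787, and matches that of *Rps4x* (792 bases) at 632 of 789 aligned bases (80.1%). The first 150 coding bases of both are shown to make clear that reads can tell them apart, with the bases that differ between them, 31 in this stretch, in capitals. For *Rps4l* it is chr6:148303232-148303381 of NCBIM37 on the plus strand.
Rps4x: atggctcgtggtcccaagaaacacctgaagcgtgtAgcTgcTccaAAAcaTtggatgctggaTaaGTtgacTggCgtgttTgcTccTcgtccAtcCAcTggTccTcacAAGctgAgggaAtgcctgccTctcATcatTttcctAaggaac
Rps4l: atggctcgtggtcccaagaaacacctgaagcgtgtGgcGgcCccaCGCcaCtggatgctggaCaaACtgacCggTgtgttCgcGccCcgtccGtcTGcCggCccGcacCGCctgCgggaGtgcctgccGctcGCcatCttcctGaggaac

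The longest run of identical coding bases was 35, and of the 901 windows of 43 bases of the *Rps4l* transcript 0 occurred in the *Rps4x* transcript. Elsewhere in the genome 18.6% of the *Rps4l* windows had a match, against 94.3% for *Rps4x*.

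In the cerebellum *Rps4l* had 10.87, 13.75 and 17.73 CPM in the 6 control libraries (lowest, median, highest), 16.01, 17.76 and 20.59 CPM in the 6 cKO+/- libraries and 30.41, 36.11 and 40.91 CPM in the 6 cKO-/- libraries. The cKO-/- libraries lay above all others, and control and cKO+/- libraries overlapped. The rise per allele lost was 0.68 (SE 0.065, 1.60-fold, adjusted p = 1.59e-06). The mean of cKO-/- was 2.58 times that of the control (exact permutation test, two-sided p = 0.00216, the smallest this design allows). Any gene whose cKO-/- and control libraries do not overlap gets this smallest p. Here and in the hippocampus it therefore adds nothing to the call of *Rps4l*. In the hippocampus controls had 19.69, 22.63 and 27.26 CPM, cKO+/- had 21.76, 30.61 and 33.74 CPM, and the 5 cKO-/- libraries had 41.45, 41.46, 41.82, 41.87 and 52.11 CPM. Here too cKO-/- lay above all other libraries, by 0.47 per allele lost (SE 0.052, 1.38-fold, adjusted p = 3.21e-05), with a ratio of means of 1.92 (exact permutation test, two-sided p = 0.00216, the smallest possible). It was the only member whose cKO-/- and control libraries did not overlap in either tissue, against 4.51% of all genes in the cerebellum (2.82% with cKO-/- above and 1.69% below control) and 3.6% in the hippocampus (1.48% above and 2.12% below). All controls carry animal numbers from Sample_1120 to Sample_1219, and the animals in that run gave 6 control, 3 cKO+/- and 2 cKO-/- cerebellar libraries, among which *Rps4l* rose by 0.55 per allele (adjusted p = 0.00241). In the hippocampus the run held 1 cKO-/- library besides Sample_1160, which leaves no replicate of that group, and the value was 0.45. Cell type markers moved with the lost alleles in the cerebellum as well, where 7.11% of all genes rose and 6.55% fell. Of 9 meningeal fibroblast markers 6 rose (summed 233.8 to 316.2 CPM in control, 312.7 to 606.2 CPM in cKO-/- libraries). So did 3 of 10 microglia, 3 of 10 oligodendrocyte and 3 of 7 hippocampal neuron markers, of which 1 more fell. Of 11 cerebellar neuron markers none rose and 1 fell (median -0.064). All 6 choroid plexus markers tested had positive values (median 0.92) and none passed, with sums of at most 27.74 CPM in control but up to 3086 CPM in cKO+/- and 2987 CPM in cKO-/- cerebellar libraries. In the hippocampus 2.09% of all genes rose and 2.35% fell. There 1 of 9 meningeal fibroblast markers rose, and of 10 hippocampal neuron markers 1 rose and 2 fell. None of the microglia, oligodendrocyte, choroid plexus or cerebellar neuron markers passed. The part of these cell types in *Rps4l* was not tested. The counts of *Rps4l* ran from 294 to 1213 in cerebellar and from 491 to 1818 in hippocampal libraries.

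**Figure D4:**
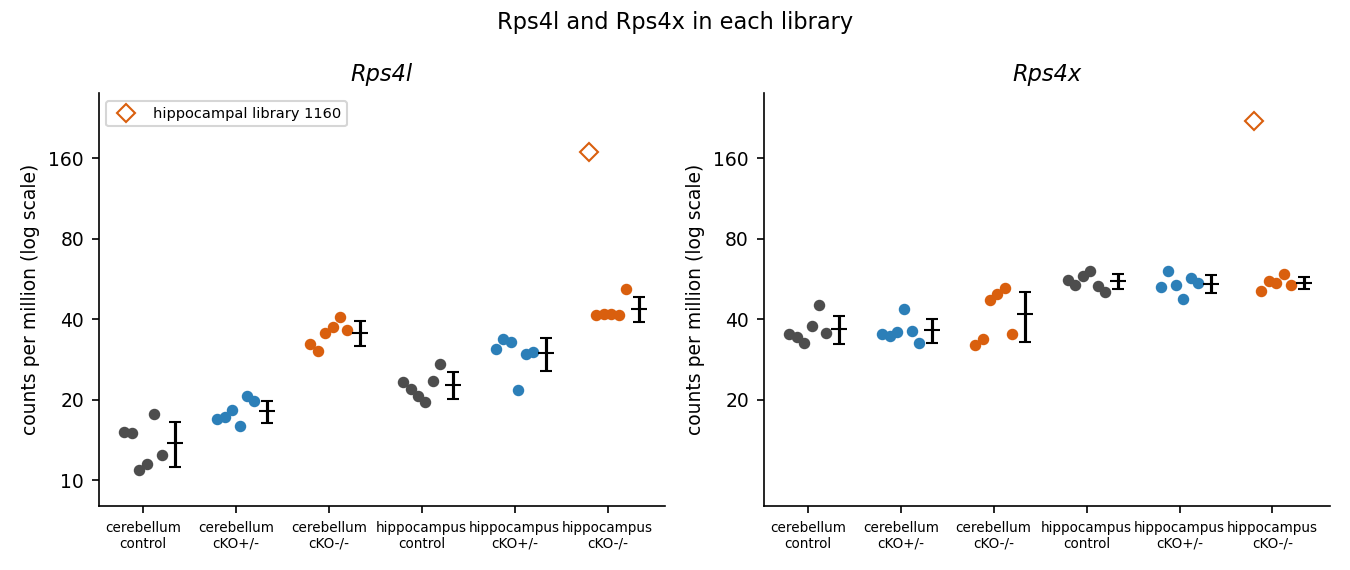
CPM of Rps4l (left) and Rps4x (right) in each library on a log scale, by tissue and genotype. Points are libraries and black bars the mean ± SD without the hippocampal library Sample_1160 (open diamond). Rps4l in cKO-/- lies above control in both tissues, while Rps4x groups overlap within each tissue.

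With genotype as a factor, the single steps of *Rps4l* in the cerebellum were 0.38 from control to cKO+/- (SE 0.11, adjusted p = 0.228) and 0.97 from cKO+/- to cKO-/- (SE 0.11, adjusted p = 8.44e-05). In the hippocampus they were 0.40 (SE 0.10, adjusted p = 0.205) and 0.54 (SE 0.11, adjusted p = 0.0207). Whether both steps of a tissue differ from each other was not tested. *Rps4x* in the cerebellum had 32.5, 35.4 and 45.12 CPM in control, 32.69, 35.57 and 43.86 CPM in cKO+/- and 32.07, 41.4 and 52.24 CPM in cKO-/- libraries, which overlapped, with a difference of 0.084 per allele lost (SE 0.060, adjusted p = 0.365). The ratio of cKO-/- to control means of *Rps4x* was 1.14 in the cerebellum (exact permutation test, two-sided p = 0.253) and 0.99 in the hippocampus (exact permutation test, two-sided p = 0.779). *Rps4l* was also 0.58 higher in the hippocampus than in the cerebellum (SE 0.063, adjusted p = 4.02e-10), beside 0.52 (SE 0.057) for *Rps4x*.

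The gene lies inside *Tmtc1*, which encodes a transmembrane protein of the endoplasmic reticulum and runs on the opposite strand (chr6:148232430-148444352, GRCm38). None of the 56 *Tmtc1* exons of GENCODE M1 overlaps *Rps4l*, and the nearest is 18324 bases away. Whether strand was used in counting is not given in the sources used here. *Tmtc1* rose in the cerebellum, by 0.26 per allele lost (SE 0.067, adjusted p = 0.0159), from 38.35, 61.87 and 70.6 CPM in control to 72.85, 81.78 and 106.9 CPM in cKO-/- libraries. In the hippocampus, where *Rps4l* rose as well, *Tmtc1* had -0.092 (SE 0.043, adjusted p = 0.243), with 74.49 to 96.79 CPM in control and 70.29 to 87.47 CPM in cKO-/- libraries. Of 15 genes listed within 1 Mb of *Rps4l*, 10 were tested in each tissue. Of these 10, 2 were called in the cerebellum and 1 in the hippocampus, against 13.7% and 4.44% of all genes. Calls this few do not set the neighbours apart from other genes. *Ccdc91* rose in both, by 0.19 in the cerebellum (SE 0.034, adjusted p = 0.00159) and by 0.19 in the hippocampus (SE 0.023, adjusted p = 8.13e-05), and no other neighbour passed besides *Tmtc1* in the cerebellum.

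The remaining members, by role, gave the following values per allele lost. The stalk genes ran from -0.014 to 0.052 in the cerebellum and from -0.042 to 0.040 in the hippocampus, and none passed. *Rps2*, with the smallest p between tissues, had 0.075 in the cerebellum (SE 0.048, adjusted p = 0.303). Of the 19 translation factor and terminal oligopyrimidine genes 0 rose and 1, *Hnrnpa1*, which encodes an RNA-binding protein of splicing, fell in the cerebellum (-0.27, SE 0.085, adjusted p = 0.0424), and none passed in the hippocampus. None of the 28 ribosome biogenesis genes passed in either tissue. Of the mTORC1 genes *Rps6kb2*, an S6 kinase, fell in the cerebellum (-0.28, SE 0.089, adjusted p = 0.0445). The mitochondrial ribosomal protein genes had 0 calls in the cerebellum and 1 in the hippocampus of 77. In the cerebellum 68 of the 83 ribosomal protein genes were lower in cKO+/- than in control (median -0.082, all genes -0.0060), but none passed, and 47 were higher in cKO-/- than in control (median 0.012). Both values share the control libraries. From cKO+/- to cKO-/- 71 of the 83 had a positive value. The genes share their libraries, so these counts of genes are not separate observations. Among the controls Sample_1190 stood highest, with a median member level of 4.41 on the log2 CPM scale. The group median of that level was 3.96 in control and 3.97 in cKO+/- cerebellum, so no lower level in cKO+/- is seen there.

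The test of the difference between tissues in the effect per allele, hippocampus minus cerebellum, passed for none of the 83 genes by edgeR, against 1.49% of 13587 genes (0.25% higher and 1.24% lower), with 6 members (7.23%) and 13.6% of all genes at an unadjusted p under 0.05. *Rps4l* had the smallest p of them (-0.22, SE 0.086, adjusted p = 0.232). Between sexes, female minus male, none of the 83 passed in the cerebellum (0.0499% of all genes, 0.0214% higher and 0.0285% lower, with 0 members and 3.39% of all genes at an unadjusted p under 0.05, median -0.023) or in the hippocampus (0.907% of all genes, 0.167% higher and 0.739% lower, with 7 members, 8.43%, and 16.1% of all genes at an unadjusted p under 0.05, median 0.047). The hippocampal gene with the smallest p was *Rps20* (0.18, SE 0.058, adjusted p = 0.136).

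The hippocampal library of cKO-/- Sample_1160 held 1.21% of its counts on the ribosomal protein genes, against 0.33% to 0.37% in the other 5 cKO-/- libraries. All 83 genes were higher there than the mean of those 5 libraries, by 0.41 (*Rpl5*) to 2.82 (*Rpl36*) on the log2 scale, with a median of 1.85. *Rplp1* reached 1048 CPM against 199.3 to 226.4 CPM, and *Rps15* 898.3 against 141.3 to 166.9 CPM. Other short genes moved alike: the median was 1.79 for 81 other genes of up to 500 bases, 1.16 for 1232 genes of 1000 to 1500 bases, 0.27 for 3015 genes of 2000 to 3000 bases and -0.77 for 2760 genes over 5000 bases. Oxidative phosphorylation genes (median 1.84) and mitochondrial ribosomal protein genes (1.46) were higher as well. *Rps4l* was at 169.1 CPM and *Rps4x* at 221.3 CPM in this library, 1.94 and 2.0 above the other cKO-/- libraries, so both moved alike. The cerebellar library of the same animal held 0.25%, the lowest of its group, with a median difference of -0.22 from the other 5 cKO-/- libraries. With all 18 hippocampal libraries all 83 genes had a positive value per allele lost (median 0.25), yet again 1 passed, *Rps4l* (0.72, SE 0.15, adjusted p = 0.0121), and the median of 816 other genes of up to 1000 bases was 0.20.

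**Figure D5:**
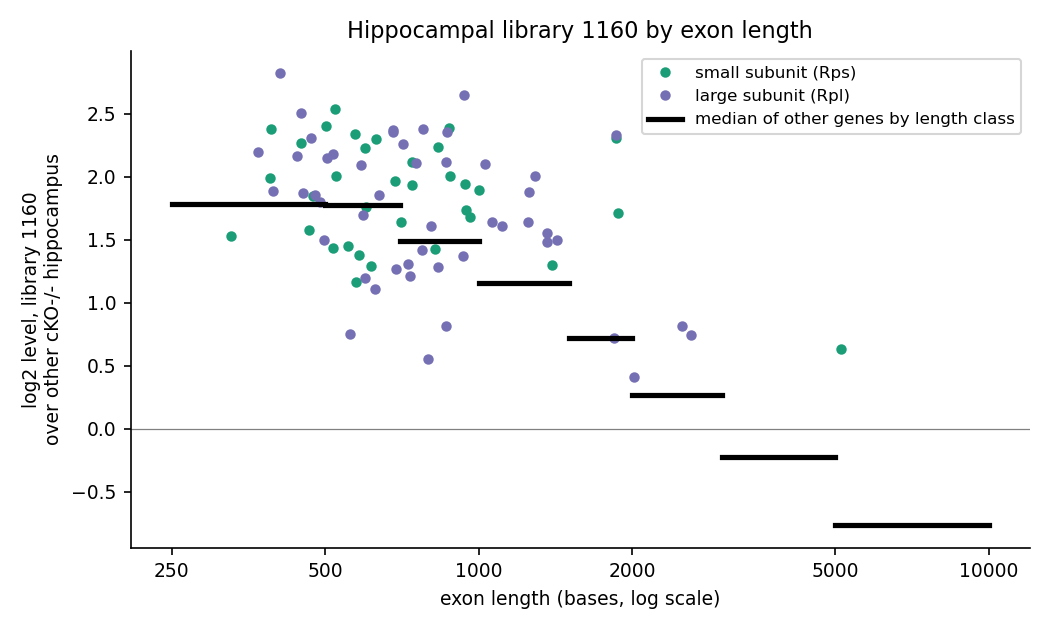
Log2 difference between hippocampal library Sample_1160 and the mean of the other 5 cKO-/- hippocampal libraries against exon length (log scale). Points are the 83 ribosomal protein genes and black lines the medians of other genes in each length class, from 1.79 up to 500 bases to -0.77 over 5000 bases (a class with no upper limit).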

How the data were processed

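The deposited files are gene counts, whole numbers without normalization that the authors made from 43 bp paired-end reads of poly(A) libraries with STAR (version 250a per the labels). The methods name mm9, while the table coordinates match GRCm38. Annotation release, strand use and the treatment of reads with several matches are not given in the sources used here. The members and gene lists were chosen with earlier results of these data known.

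A gene entered a test if 6 or more libraries of the tissue exceeded 1 CPM. The test was edgeR 4.0.16 (R 4.3.3) with its quasi-likelihood F-test (legacy=TRUE) with TMM factors, sex and the number of alleles lost, and Benjamini-Hochberg adjustment over all genes at 0.05. Tissues were compared in 1 fit of 35 libraries with 6 groups and sex. Levels are TMM-scaled CPM over 36 libraries, and differences between single libraries used a pseudocount of 0.5 CPM. Each animal gave both tissues, as its number in the labels shows. In 14 of 17 animals the deviations of both libraries from their group means correlated over genes at more than 0.1 (median 0.19). Named were the 4 members with the smallest p in each direction of a comparison, the 4 with most and with fewest counts per kilobase in the controls of each tissue, and fixed relatives; *Rpl37a*, *Rpl13a*, *Rps28*, *Rps20*, *Rpl36*, *Gapdh*, *Tmtc1* and *Ccdc91* were named after their values were seen. Scripts were tested on simulated data. Alternatives, with DESeq2 1.42.0 among them, are given below. Some single-gene results are not reported here.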

Additional observations from a re-analysis of the deposited data

Results flagged for a closer look

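In 21 of 84 groups of libraries the highest or lowest library lay apart from the rest by Dixon's criterion, where chance alone gives about 1 in 20 for a single group. The groups share libraries and genes that move together, and Sample_1160 had been set apart beforehand. The number of flags can therefore not be set against that rate. Sample_1160 of the hippocampal cKO-/- group was highest for the share of counts on ribosomal protein genes (1.21%), *Rpl3* (77.9 CPM), *Rpl7l1* (64.6 CPM), *Rplp1* (1048 CPM), *Rps15* (898.3 CPM), *Rps15a* (153.9 CPM), *Rps2* (256.9 CPM), *Rps27l* (21.4 CPM), *Rps4l* (169.1 CPM) and *Rps4x* (221.3 CPM).

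The hippocampal library of cKO+/- Sample_1433 was lowest of its group for the share of counts (0.302%, others 0.344% to 0.368%), *Rpl3* (22.7 CPM), *Rps2* (57.1 CPM) and *Rps4l* (21.8 CPM), and its cerebellar library was highest for *Rps4x* (43.9 CPM). In the hippocampal controls Sample_1172 was highest for *Rpl23a* (4.04 CPM) and *Rps15a* (108.7 CPM). In the cerebellum control Sample_1190 was highest for *Rps15* (133.4 CPM), control Sample_1129 for *Pogz* (122.1 CPM), and cKO+/- Sample_933 was lowest for *Pogz* (64.8 CPM). Without Sample_1160, cKO-/- Sample_936 was highest for hippocampal *Rps4l* (52.1 CPM, others 41.5 to 41.9 CPM).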

How the results depend on the processing

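Each comparison was recomputed with other normalizations, without the low-count filter, with DESeq2 and the bias-adjusted edgeR form, with a term for animal number, with all 18 hippocampal libraries and without each animal in turn; genotype as a factor and the animals numbered Sample_1120 to Sample_1219 alone were tried for the allele effects. The tissue contrast called 62 to 71 of the 83 genes, and 67 to 73 without single animals. With the animal as replicate block it called 70, the same 70 genes, and in controls alone 54 in place of 48, all 48 among them. The control contrast ran from 32 (all 18 hippocampal libraries) to 54, and from 41 to 61 without single animals (61 without control Sample_1190). The block left the interaction at 0 calls. The cerebellar allele effect called 1 gene, *Rps4l*, under every alternative. The hippocampal one called 1 except for 3 with DESeq2 and 3 without cKO-/- Sample_1219 (*Rps4l*, *Rpl13a* and *Rpl37a*; range 1 to 3 without single animals), and the cause was not tested. Calls over all genes moved more, from 277 to 2569 in the cerebellum and from 27 to 1056 in the hippocampus. Of 2791 recomputed values of named members 2764 kept their side of the threshold, 21 lost the call (*Rpl7*, *Rps15a*, *Rps27l*, *Rps19bp1*), 6 gained it (*Rpl36al*) and 174 changed sign, 0 of them called either way. *Rps4l* ran from 0.55 to 1.35 in the cerebellum (0.65 to 0.73 without single animals) and from 0.45 to 0.94 in the hippocampus (0.43 to 0.50 without single animals), the highest being cKO-/- against control; its interaction, not called, was 0.042 with all 18 hippocampal libraries. Genes with few counts, such as *Rps27*, allow only coarse comparisons.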
